A study of Mus musculus with 10 samples.

Results

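Ttr, Folr1, Kl, Clic6, Aqp1, Slc4a5, Otx2, Enpp2, Slc16a8 and Cldn2 are genes of the choroid plexus, and they are described here in RNA from hippocampal synaptoneurosomes. They were picked by symbol, each matched to 1 row of the gene table by its Ensembl identifier, and make up 10 of the 22255 genes measured. The choice rested on the levels themselves, because these genes had been seen to vary between libraries. Their variation from library to library is therefore given as a description without a test.

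The choroid plexus is a fold of epithelium over a vascular stroma that hangs in the brain ventricles, and in the lateral ventricle it lies along the edge of the hippocampus. Its epithelial cells secrete cerebrospinal fluid, form the barrier between blood and that fluid, and carry hormones and vitamins across. Transthyretin, the product of Ttr, is the protein for which this epithelium is best known: it binds thyroid hormone and the retinol carrier, and within the brain its messenger RNA is made chiefly there. Neurons of the hippocampus are not a textbook source of most of these transcripts. Several of the genes have other known sources, among them liver for Ttr, oligodendrocytes for Enpp2, kidney and some neurons for Kl, red blood cells for Aqp1, and the retinal pigment epithelium for Otx2 and Slc16a8.

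Synaptoneurosomes are resealed, pinched-off synaptic compartments prepared from homogenised tissue. All mice were wild-type C57Bl/6J, and 5 libraries came from animals given vehicle and 5 from animals given AM6545, a cannabinoid CB1 receptor antagonist known for poor entry into the brain, on a sub-chronic schedule. Dose, age, sex and dissection are not given in the sources used here, nor is the number of animals behind a library. The p-values below therefore measure the spread between libraries, which may be partly technical. Gene totals ran from 18106112 to 25899794 counts per library.

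The labelled tissue was checked against its markers. All 8 hippocampal neuron genes passed the expression filter, and their summed level lay between 5260 and 6939 CPM in every library (CPM, the count scaled to a library total fixed at the same value for all libraries, after adjustment by the trimmed mean of M-values). Snap25, a synaptic vesicle fusion protein, averaged 3883 CPM, and Slc17a7, the vesicular glutamate transporter of excitatory neurons, 870 CPM. Vehicle replicate 4, the library in which all 10 choroid plexus genes were lowest, had the highest summed neuronal level, at 6939 CPM. Many results that rest on this library are given with and without it, and the others with it only. Ranges from highest to lowest that are given for all libraries only have this library as their lowest point.

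The 10 genes together took between 0.0409% and 0.970% of a library. In the vehicle group the share was 0.868%, 0.770%, 0.970%, 0.0409% and 0.687% for replicates 1 to 5. For AM6545 it was 0.454%, 0.224%, 0.681%, 0.215% and 0.785%. Vehicle replicate 4 stood far below the other libraries, and AM6545 replicates 2 and 4 lay between. With vehicle replicate 4 the AM6545 values fell within the range of the vehicle values; without it 4 of the 5 AM6545 values lay below every vehicle value and the highest, that of replicate 5, lay among them. Ttr and Enpp2 alone supplied between 95.5% and 96.9% of the counts of the 10 genes in every library. In bulk RNA, fewer cells of a type and less RNA per cell cannot be told apart, and this holds for each level below.

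**Figure D1:**
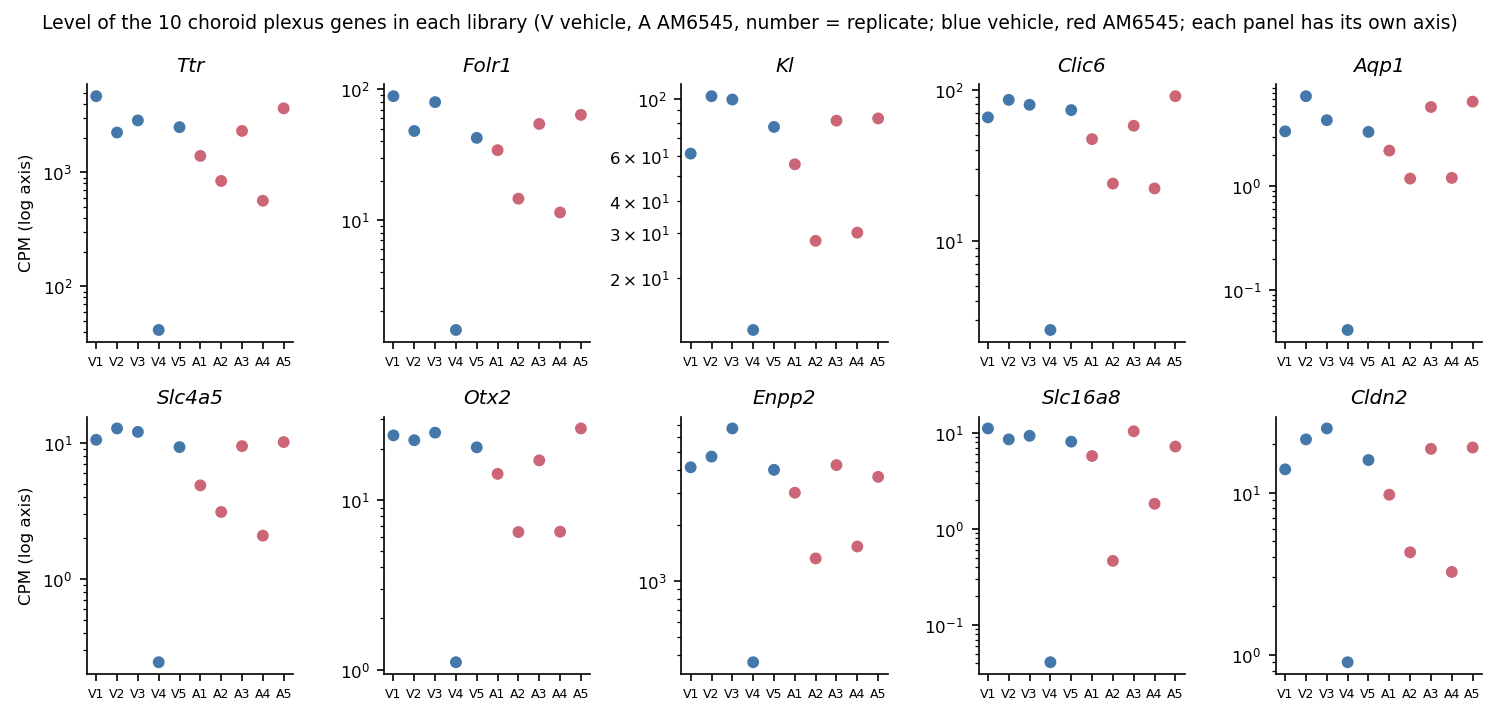
Level of each of the 10 genes (CPM, log axis, 1 panel and 1 axis range per gene) in each library, with vehicle libraries in blue and AM6545 libraries in red. Vehicle replicate 4 is the lowest point in all 10 panels, and AM6545 replicates 2 and 4 are the next lowest.

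Compared per length of transcript, the genes covered more than 3 orders of magnitude on average over the libraries. Ttr stood at 1773 CPM per kilobase and Enpp2 at 1106. Folr1 followed at 42.3, Clic6 at 14.6, Kl at 12.3, Otx2 at 7.88, Cldn2 at 4.33, Slc16a8 at 3.49, Slc4a5 at 1.45 and Aqp1 at 1.36 CPM per kilobase. Neighbours such as Clic6 and Kl, or Slc4a5 and Aqp1, were closer to each other than the spread of either gene between libraries.

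The secreted and carrier proteins come first. Ttr was measured at 4654, 2235, 2854, 41.5 and 2490 CPM in vehicle replicates 1 to 5. In AM6545 replicates 1 to 5 it was 1394, 841, 2308, 564 and 3642 CPM. The highest library exceeded the lowest 112-fold (95% exact interval for counting error, 105 to 119), and the range narrowed to 8.25-fold over the 9 libraries without vehicle replicate 4. Vehicle replicate 4 still held 1014 Ttr counts, so the low level was measured and not a missing value. Intervals of this kind cover counting error only, since copies made by amplification were not told apart by molecular identifiers.

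Folr1 encodes the folate receptor alpha, which this epithelium uses to pass folate into the cerebrospinal fluid. It was at 88.7, 48.0, 79.9, 1.43 and 42.5 CPM in the vehicle libraries. The AM6545 libraries had 34.2, 14.5, 54.4, 11.4 and 63.8 CPM. The order of the libraries was close to that of Ttr, with vehicle replicate 1 highest for both genes, and the groups overlapped. Folr1 spanned 61.9-fold over all libraries (95% exact interval, 44.4 to 89.2) and 7.79-fold without vehicle replicate 4.

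Enpp2 encodes autotaxin, a secreted enzyme that makes the signalling lipid lysophosphatidic acid. Vehicle libraries held 4115, 4701, 6674, 363 and 3987 CPM. In the AM6545 group the values were 2998, 1323, 4229, 1535 and 3652 CPM. The highest library exceeded the lowest 18.4-fold, a far smaller range than that of Ttr, and the 9 other libraries covered 5.04-fold.

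Kl encodes alpha-Klotho, a membrane protein that acts with fibroblast growth factor receptors and is also shed into the cerebrospinal fluid. Its level was 61.1, 102, 99.1, 12.6 and 77.5 CPM in vehicle replicates 1 to 5. In AM6545 replicates 1 to 5 it was 55.5, 28.0, 82.0, 30.1 and 83.7 CPM. Kl had the narrowest range of the 10 genes, 8.09-fold over all libraries and 3.65-fold without vehicle replicate 4.

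The transporters and channels move ions, water and metabolites. Clic6, a chloride channel family protein, was at 65.5, 85.5, 79.3, 2.58 and 73.2 CPM in the vehicle libraries and between 22.2 and 90.4 CPM in the AM6545 libraries. Slc4a5, a sodium bicarbonate cotransporter of the epithelial membrane that faces the ventricle, was at 0.246 CPM (6 counts) in vehicle replicate 4, between 9.26 and 12.7 CPM in the other vehicle libraries, and between 2.08 and 10.1 CPM with AM6545. Aqp1, a water channel of the same membrane, was at 0.0409 CPM (1 count) in vehicle replicate 4 and between 1.19 and 7.43 CPM elsewhere. Clic6 had its highest value in an AM6545 library, replicate 5, and for all 3 genes the groups overlapped.

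Slc16a8, the monocarboxylate transporter MCT3 known from the retinal pigment epithelium and choroid plexus, had the widest ratio of highest to lowest library and the highest biological coefficient of variation of the set, 1.11 in edgeR's fit. By the coefficient of variation of CPM it was not the highest, at 65.4% against 69.6% for Aqp1, 68.0% for Ttr and 66.4% for Folr1 over the 10 libraries. It stood at 11.1, 8.57, 9.33, 0.0409 and 8.11 CPM in vehicle replicates 1 to 5 and at 5.75, 0.465, 10.4, 1.83 and 7.22 CPM in AM6545 replicates 1 to 5. Vehicle replicate 4 held 1 count and AM6545 replicate 2 held 9. With 1 count in the lowest library, the ratio of highest to lowest was 272 with a 95% exact interval of 48.4 to 10810 for Slc16a8. For Aqp1 it was 181 with an interval of 32.1 to 7215. Without vehicle replicate 4 the ratio of highest to lowest was 23.95 for Slc16a8 and 6.25 for Aqp1. Both single counts lie under a floor of 3 counts, which is 0.123 CPM in vehicle replicate 4.

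Cldn2 encodes claudin 2, a tight junction protein that forms pores for small cations in leaky epithelia. It was at 13.9, 21.3, 24.9, 0.901 and 15.9 CPM in the vehicle libraries. The AM6545 libraries gave 9.71, 4.29, 18.6, 3.25 and 19.0 CPM. Its values without vehicle replicate 4 covered 7.67-fold, with AM6545 replicates 2 and 4 lowest.

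Otx2, a homeodomain transcription factor needed to form and keep the choroid plexus, was the only regulator in the set. Vehicle libraries held 24.0, 22.4, 24.9, 1.11 and 20.4 CPM. The AM6545 libraries held 14.2, 6.46, 17.1, 6.49 and 26.3 CPM. The 4 higher vehicle libraries lay close together, and vehicle replicate 4 was 23.8-fold below the highest library. Without vehicle replicate 4 the range of Otx2 was 4.08-fold. Exons of Otx2 overlap those of Gm49154 on the same strand and Otx2os1 on the opposite strand in the GENCODE M21 annotation, and those of Enpp2 overlap Gm26684 on the opposite strand. Strand would not separate Otx2 from Gm49154, and for the pairs on opposite strands the sources used here do not state whether it was used. Reads that fall within the overlapping exons therefore cannot be told apart with certainty. Of the 31-base words in the transcripts of Otx2, 3.23% also occur in another gene, against 1.57% for Folr1, 1.51% for Kl and 0 for the other 7 genes.

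Since the genes moved together, promoters were read from the RefSeq table for GRCm38.p6. The table matched 6 of the 10 genes, through 9 start sites, and the 250 bases before each start were searched on both strands. Ttr, Folr1, Clic6 and Enpp2 were not matched, and several of the 9 windows belong to Otx2. The 2 windows printed are those in which a match bears on a gene's own product or start: an Otx2 window at chr14:48665110-48665359 on the minus strand, with capitals marking GGATTA, the other-strand spelling of the Otx core TAATCC, and the Cldn2 window at chrX:139800558-139800807 on the plus strand, with capitals marking TATAAA.
Otx2 promoter: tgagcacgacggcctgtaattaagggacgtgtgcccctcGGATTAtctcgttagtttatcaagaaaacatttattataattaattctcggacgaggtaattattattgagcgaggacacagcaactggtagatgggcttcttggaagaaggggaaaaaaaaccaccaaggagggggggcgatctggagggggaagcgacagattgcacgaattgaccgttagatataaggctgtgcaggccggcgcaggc
Cldn2 promoter: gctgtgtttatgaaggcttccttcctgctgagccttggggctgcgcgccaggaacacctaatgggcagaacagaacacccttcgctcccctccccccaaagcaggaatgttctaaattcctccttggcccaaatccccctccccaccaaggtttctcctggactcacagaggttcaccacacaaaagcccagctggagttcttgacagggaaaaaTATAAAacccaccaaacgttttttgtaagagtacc

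The Otx core was found in 1 of the 9 windows, the Otx2 window above, where it begins 211 bases before the start. Of all 32851 windows in the table, 6.25% held it. TATAAA was found in 3 of the 9 windows and in 12.37% of all windows; in Cldn2 it begins 35 bases before the start. The forkhead core TGTTTAC was in none of the 9 and in 3.17% of all windows. A match is a run of letters and not a measured binding site, and the 10 genes' shared variation between libraries is not tied to these letters by any value here.

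The ratio of each gene to Ttr within a library does not depend on how libraries are scaled. It is given as counts per 100 Ttr counts. Over the 9 libraries without vehicle replicate 4, the ratio ranged less than the level for 8 of the 9 other genes, Kl being the exception. Folr1 kept the steadiest ratio: 1.91, 2.15, 2.80 and 1.71 in vehicle replicates 1, 2, 3 and 5, and 2.46, 1.73, 2.36, 2.02 and 1.75 in the AM6545 libraries. Its ratio covered 1.64-fold while its level covered 7.79-fold. Slc16a8 had the widest ratio range, 8.16-fold, and its low end was the 9 counts of AM6545 replicate 2. Ttr and Folr1 both have short transcripts, and with Folr1 as the reference, a choice made after seeing the data, 8 of 9 genes again ranged less in ratio than in level.

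**Figure D2:**
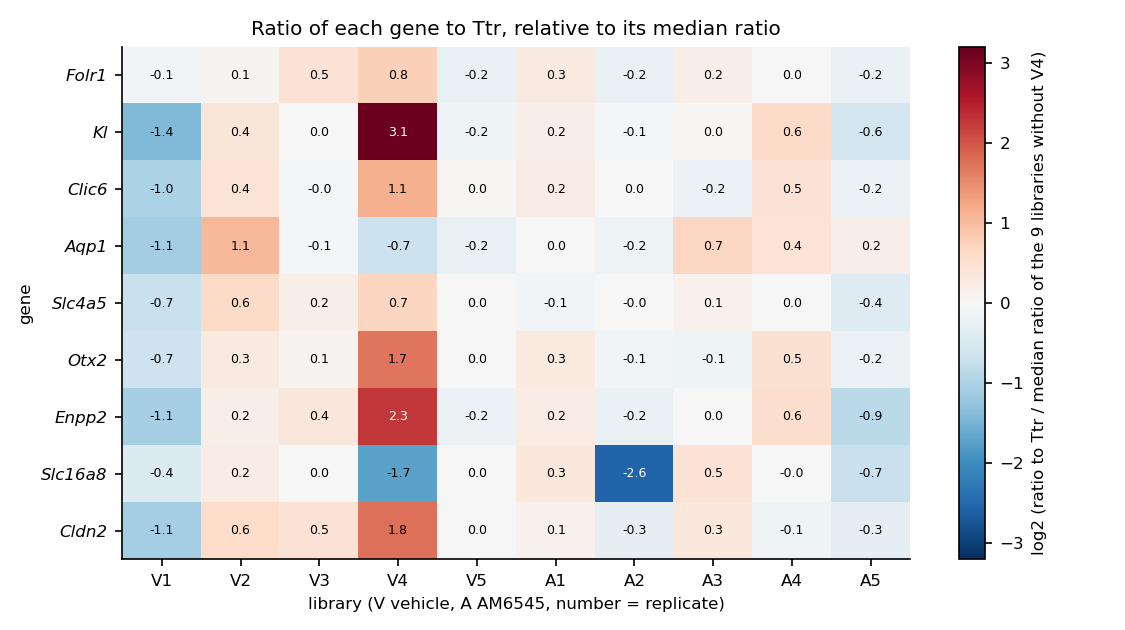
Ratio of each gene to Ttr in each library as log2 of the ratio over the gene's median ratio in the 9 libraries without vehicle replicate 4 (V4), with red above and blue below the median. V4 is the reddest column for Kl and Enpp2, and V1 is the bluest column for most genes.

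In vehicle replicate 4 the genes did not fall by a common factor. Kl stood at 30.4 counts per 100 Ttr counts there (95% exact interval, 26.7 to 34.5) against a median of 3.47 in the other 9 libraries, which is 8.75 times that median. Enpp2 stood at 875 (interval 820 to 935) against 183, or 4.78 times. The ratio was 3.40 times the median for Cldn2, 3.25 times for Otx2, 2.18 times for Clic6, 1.71 times for Folr1 and 1.60 times for Slc4a5. For Slc4a5 the interval, 0.217 to 1.29, includes the median of 0.369. Aqp1 and Slc16a8, with 1 count each, were below their medians at 0.0986, with an interval of 0.00249 to 0.551 that includes both. Measured against Folr1 in place of Ttr, the departures in vehicle replicate 4 were smaller: 5.43 times the median for Kl, 2.90 for Enpp2, 2.11 for Cldn2, 1.86 for Otx2, 1.27 for Clic6 and 0.990 for Slc4a5. The interval for Clic6, 117 to 280 counts per 100 Folr1 counts, includes its median of 142.

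Put as counts, Kl at its median ratio would have had 35.2 counts in vehicle replicate 4 and had 308, so 88.6% of its counts there were above what the Ttr count would give. For Enpp2 the figures were 1858 and 8876 counts, or 79.1%. A straight line of each gene's CPM on Ttr CPM over the 10 libraries met zero Ttr at 32.0 ± 14.1 CPM for Kl and 1380 ± 797 CPM for Enpp2 (SE of the intercept). The intercept was 18.7 ± 10.7 CPM for Clic6, 4.39 ± 2.30 CPM for Otx2 and 3.18 ± 5.69 CPM for Folr1. The levels measured in vehicle replicate 4 lay below the intercept for each of these 5 genes, at 12.6 CPM for Kl and 363 CPM for Enpp2, so a straight line does not describe the low end and the intercept is not a level in the absence of Ttr.

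At the other end, vehicle replicate 1 had the highest Ttr level, and 7 of the 9 ratios were lowest there among the 9 libraries. Kl stood at 1.31 and Enpp2 at 88.4 counts per 100 Ttr counts, 0.378 and 0.483 times their medians. Folr1, at 0.943 times its median, did not share the shift. Across 14334 genes, each gene's deviation from its own mean in this library ran against transcript length, with Spearman's rho of -0.533; genes share the library and are not independent, so this is a description. Over the 10 choroid plexus genes rho was -0.673 in vehicle replicate 1. In vehicle replicate 4 it was 0.673 over the 10 genes, with longer transcripts less reduced, and -0.0787 over all genes. In the remaining libraries the 10 genes gave rho between -0.552 (AM6545 replicate 1) and 0.467 (vehicle replicate 2), so sizeable values were not confined to these 2 libraries. With the other choroid plexus epithelial genes added, 37 genes together, rho was -0.636 in vehicle replicate 1 and only 0.324 in vehicle replicate 4. Ttr and Folr1 are the shortest of the 10, at 1186 and 1039 bases, and Kl is the longest, at 5126 bases. The part of length in the low ratios of vehicle replicate 1 and in the high ratios of vehicle replicate 4 was not tested.

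Enpp2 was the gene in which the deposited transcript table showed a change of form at a high count, 8876 in vehicle replicate 4. The 3 main forms differ by 2 cassette exons. Enpp2-202 carries exon 20 of its 26, at chr15:54851348-54851422 on the minus strand, 75 coding bases or 25 codons; it corresponds to the form long called gamma or brain-type autotaxin. Enpp2-204 carries exon 12 of its 26, at chr15:54877776-54877931 on the minus strand, 156 coding bases or 52 codons. Enpp2-201 has neither. The exons are printed from GENCODE M21 transcripts on GRCm38, because the reads that tell the forms apart fall on them; capitals mark the exon and lower case the 15 bases on each side, and the line after each gives the junction in Enpp2-201 that lacks it.
Enpp2-202 exon: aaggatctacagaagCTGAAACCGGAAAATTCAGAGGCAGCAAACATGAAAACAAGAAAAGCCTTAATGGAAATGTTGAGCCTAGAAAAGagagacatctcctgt
Enpp2-201 junction without that exon: aaggatctacagaagagagacatctcctgt
Enpp2-204 exon: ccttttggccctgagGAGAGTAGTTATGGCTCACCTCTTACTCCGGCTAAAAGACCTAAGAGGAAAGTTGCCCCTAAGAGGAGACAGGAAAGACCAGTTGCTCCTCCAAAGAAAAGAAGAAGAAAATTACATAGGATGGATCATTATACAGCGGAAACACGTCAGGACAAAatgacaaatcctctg
Enpp2-201 junction without this exon: ccttttggccctgagatgacaaatcctctg

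Of the 3 forms, Enpp2-202 made up 7.90%, 9.47%, 9.65%, 29.2% and 8.46% in vehicle replicates 1 to 5. With AM6545 its share was 9.48%, 11.1%, 9.75%, 13.2% and 8.50% in replicates 1 to 5. Vehicle replicate 4 stood apart, and the next highest shares were those of AM6545 replicates 4 and 2, the libraries next lowest in Enpp2. Enpp2-204 made up 5.19% in vehicle replicate 4 and between 7.27% and 8.49% in the other 9 libraries, but the 3 shares sum to the whole, so it had to fall as Enpp2-202 rose. Per 100 counts of Enpp2-201, Enpp2-204 had 7.91 counts in vehicle replicate 4 and between 9.13 and 10.35 elsewhere, and Enpp2-202 had 44.5 and between 9.41 and 16.5.

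In level, Enpp2-201 was 236 CPM in vehicle replicate 4 and between 1061 and 5434 CPM elsewhere, a 23.0-fold range. Enpp2-204 went from 18.7 CPM to between 103 and 535 CPM, a 28.7-fold range. Enpp2-202 was 105 CPM in vehicle replicate 4 and between 145 and 638 CPM elsewhere, a range of 6.07-fold. Over all 10 libraries the form with the shorter exon thus varied least, but all of these ranges have vehicle replicate 4 as their lowest point. Over the other 9 libraries the ranges of the 3 forms were much closer to each other. A line of Enpp2-202 on Enpp2-201 met zero at 50.3 ± 26.8 CPM over 10 libraries and at 28.2 ± 34.3 CPM over the 9 without vehicle replicate 4 (SE of the intercept). For Enpp2-204 the intercept was -5.40 ± 6.14 CPM over 10 libraries and -5.69 ± 8.43 CPM over the 9. Oligodendrocyte markers summed to 14770 CPM in vehicle replicate 4, the lowest of the vehicle libraries. The other 9 libraries, AM6545 included, had 12570 to 28760 CPM, with a median of 16070 CPM. Of the list's 10 genes, 0 were lowest in vehicle replicate 4 and 0 followed the choroid plexus genes. The part of oligodendrocytes in the share of Enpp2-202 was not tested.

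**Figure D3:**
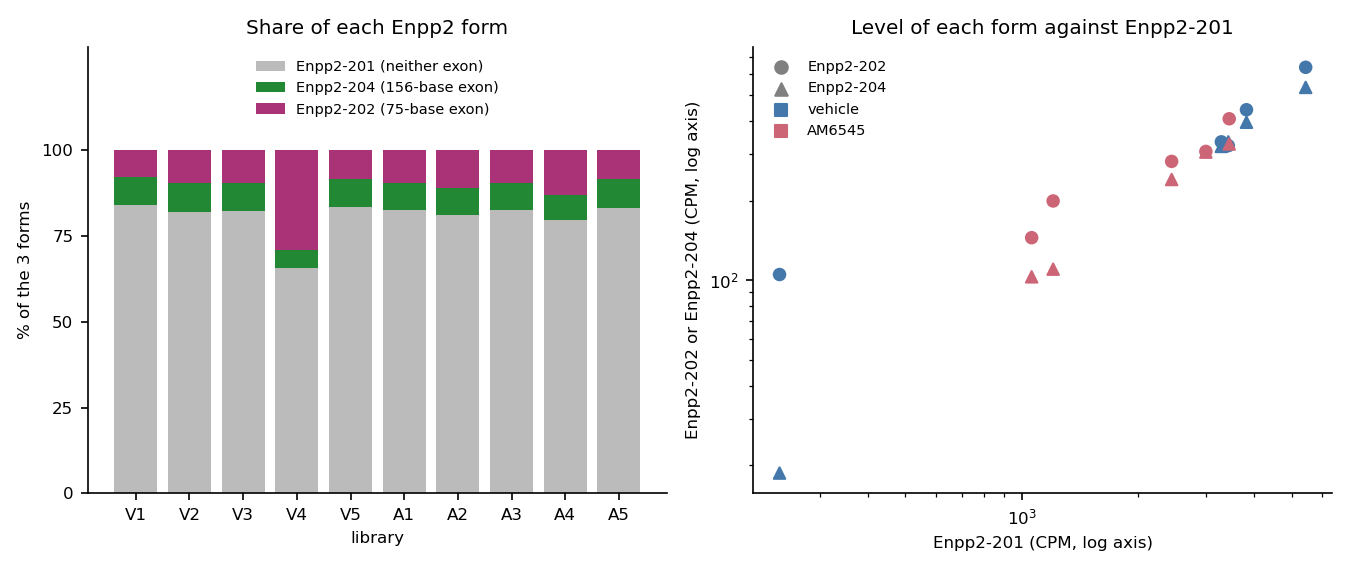
Left, share (%) of the 3 main Enpp2 forms in each library. Right, level (CPM, both axes log) of Enpp2-202 (circles) and Enpp2-204 (triangles) against Enpp2-201, vehicle in blue and AM6545 in red; at the lowest Enpp2-201 level, in vehicle replicate 4, Enpp2-202 lies above Enpp2-204 by a wider gap than elsewhere.

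Other genes offered less. Ttr, Clic6, Aqp1 and Cldn2 had counts on 1 transcript each, and Kl-201 held between 97.9% and 99.6% of Kl in the 9 other libraries and 98.6% in vehicle replicate 4. For Otx2, the transcript Otx2-210 held 81.2% of the 27 counts in vehicle replicate 4. It was listed at 0 in AM6545 replicates 2 and 4, although these held 125 and 156 Otx2 counts. No change of form is therefore read from its share, and the cause of the zeros was not tested.

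Genes outside the set were compared with it by 2 Pearson correlations of log2 CPM with the mean of the 10 genes, over all 10 libraries and over the 9 without vehicle replicate 4. A gene was said to follow the set when the smaller of the 2 was over 0.9. By this measure 78 of 14358 tested genes (0.543%) followed it, 69 of them outside the set. Of these 69, 25 stand in one of the gene lists below and 44 in no list. Within the set, Slc16a8 fell short at 0.896. The points share library depth and scaling, and no test was made. Together these 78 genes took 0.0758% of vehicle replicate 4 and up to 1.17% of a library, in vehicle replicate 3.

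The 10 genes most like the set were Col8a2, Col8a1, Lbp, Large2, Slc13a4, Steap1, Kcnj13, Slc2a12, F5 and Slc16a4. Their smaller correlation lay between 0.967 and 0.987. Of these, 8 stand in the list of other choroid plexus epithelial genes, and Large2 and Slc16a4 in no list. Kcnj13, a potassium channel of the membrane that faces the ventricle, averaged 85.6 CPM and went from 2.61 CPM in vehicle replicate 4 to between 20.99 and 162 CPM elsewhere. Col8a1 and Col8a2, which encode the chains of type VIII collagen, were at 0.942 and 0.532 CPM in that library and reached 22.6 and 13.9 CPM. Exons of Kcnj13, F5, Large2 and Slc2a12 overlap a gene on the opposite strand.

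Among other choroid plexus epithelial genes, 21 of 27 followed the set and 25 of 27 were lowest in vehicle replicate 4. Their summed level was 180 CPM there and between 329 and 1095 CPM in the other 9 libraries. Cab39l, an adaptor of the kinases that control ion cotransport, averaged 85.7 CPM and followed the set with a smaller range, from 40.5 CPM to 124 CPM. Car12, a membrane carbonic anhydrase, did not follow at 0.826, going only from 33.0 to 75.6 CPM. Tmem72, chosen after its values were seen, stayed between 17.98 and 28.1 CPM in every library, with 19.1 CPM in vehicle replicate 4.

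Of the 24 genes for cerebrospinal fluid secretion and barrier transport that are widely used elsewhere in the brain, 3 followed the set. Slco1c1, a thyroid hormone transporter, and Slc4a2, an anion exchanger, had the highest correlations, 0.953 and 0.932. The third was Ocln, the tight junction protein occludin, at 0.915; it was named after its values were seen. Atp1b1, a beta subunit of the sodium pump, did not follow and was at 3601 CPM in vehicle replicate 4 against 2768 to 3566 CPM in the other 9 libraries. The list's summed level was 5063 CPM in vehicle replicate 4, within the 4313 to 5548 CPM of the other libraries, although 11 of its 24 genes were lowest there.

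Adjoining tissues followed less. In the stroma and meninges list 1 of 13 genes followed, Igfbp2, a growth factor binding protein known from both the stroma and the epithelium, which went from 24.7 to 209 CPM. The list's summed level was lowest in vehicle replicate 4, at 211 CPM against 278 to 552 CPM, and 7 of its 13 genes were lowest there. Igf2, a growth factor, was at 2.06 CPM in that library and between 6.68 and 27.2 CPM elsewhere. Dcn, a fibroblast proteoglycan and the most abundant of the list, was at 147 CPM there and between 94.2 and 189 CPM elsewhere. None of 12 ependymal genes followed, although their summed level was also lowest in vehicle replicate 4, at 29.2 CPM against 34.8 to 92.0 CPM. The ependymal gene Rsph1, a cilium protein, came closest, with a smaller correlation of 0.841.

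Of the endothelial, red blood cell, oligodendrocyte, thalamic and habenular, and hippocampal neuron genes, 0 of 10, 0 of 5, 0 of 10, 0 of 9 and 0 of 8 followed. Haemoglobin and Alas2, the red blood cell genes, were all lowest in vehicle replicate 4, with a summed level of 285 CPM against 329 to 1333 CPM, and their smaller correlations were between 0.349 and 0.412. Slco1a4, an organic anion transporter of brain endothelium, had 0.841, the highest of its list. Thalamic and habenular genes summed to 141 CPM in vehicle replicate 4 and to 121 to 199 CPM elsewhere, and their highest correlation was 0.550, for Lef1. Liver genes were under 1 CPM in every library for 5 of 5 genes, and none passed the filter. In the retinal pigment epithelium list 0 of 4 tested genes followed, and Rpe65, the defining isomerase, averaged 0.661 CPM. Of the lists, that of the choroid plexus epithelium had by far the largest share of genes that followed the set, 21 of 27. The set and the lists were chosen with earlier results of these data known, so this share is a description and no test. Whether plexus tissue was carried into the preparation was not tested.

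**Figure D4:**
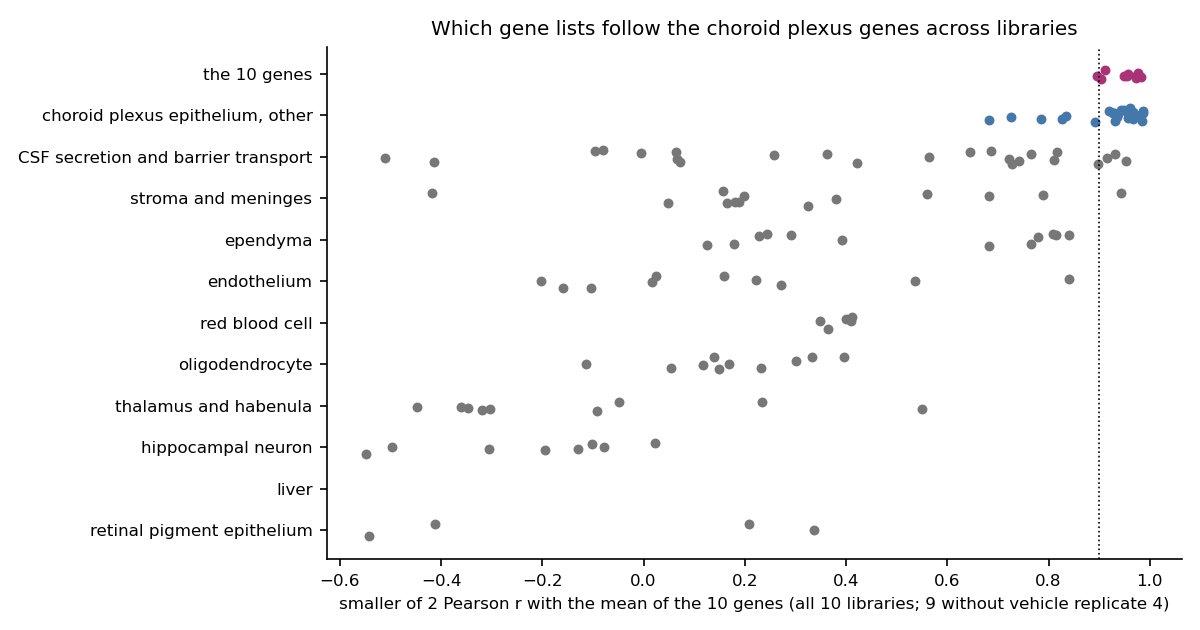
Each point is a tested gene, placed by the smaller of its 2 Pearson correlations (no unit) with the mean of the 10 genes over 10 and over 9 libraries, by gene list; for the 10 genes themselves the mean is of the other 9. The dotted line is 0.9, which 21 of 27 other choroid plexus epithelial genes and 0 of 8 hippocampal neuron genes passed. The lists were chosen with earlier results of these data known.

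AM6545 was compared with vehicle for each of the 10 genes as rows of a fit over all 14358 tested genes, all 10 passing the filter. With edgeR's quasi-likelihood test 0 of the 10 were called at a Benjamini-Hochberg adjusted p under 0.05, against 0.0% of all genes, and 0 of 10 had an unadjusted p under 0.05, against 1.88% of all genes (270 genes). The DESeq2 Wald test called 0 genes of any kind and limma-voom 1, which was not of the set. The largest estimate was that of Slc4a5, with a log2 fold change of -0.60 ± 0.76 (SE; edgeR unadjusted p = 0.455, adjusted p = 0.9998). No AM6545 library exceeded the vehicle median for Slc4a5.

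Every other gene of the set also had a lower estimate with AM6545, within its error. The vehicle mean of Ttr was 2455 ± 1648 CPM and the AM6545 mean 1750 ± 1250 CPM (SD over 5 libraries in each group). Its log2 fold change was -0.49 ± 0.95 (SE). For Enpp2 the means were 3968 ± 2284 and 2747 ± 1282 CPM in the same order, and the log2 fold change was -0.53 ± 0.66. Aqp1 had the smallest estimate, -0.13 ± 0.84, and its sign turned without vehicle replicate 2 (0.29), without AM6545 replicate 2 (0.08) or 4 (0.09), and with limma-voom or a replicate block. The median log2 fold change of the 10 genes was -0.49, beside -0.0057 over all tested genes, and that of the 27 other choroid plexus epithelial genes was -0.42.

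Between-library spread set the size of these errors. The biological coefficient of variation lay between 0.594 and 1.11 for the 10 genes, against a median of 0.148 over all tested genes. With any 1 library left out, the median log2 fold change of the 10 lay between -0.80 and -0.26. It was -0.80 without vehicle replicate 4, and nearer 0 without vehicle replicate 3 (-0.26), AM6545 replicate 2 (-0.27) or AM6545 replicate 4 (-0.26). Ttr moved between -0.94, without AM6545 replicate 5, and -0.12, without vehicle replicate 1. Without vehicle replicate 4, Ttr was at -0.81 ± 0.55 (unadjusted p = 0.185) and Enpp2 at -0.83 ± 0.35 (unadjusted p = 0.0383), and the adjusted p of edgeR was 0.9999 for both.

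**Figure D5:**
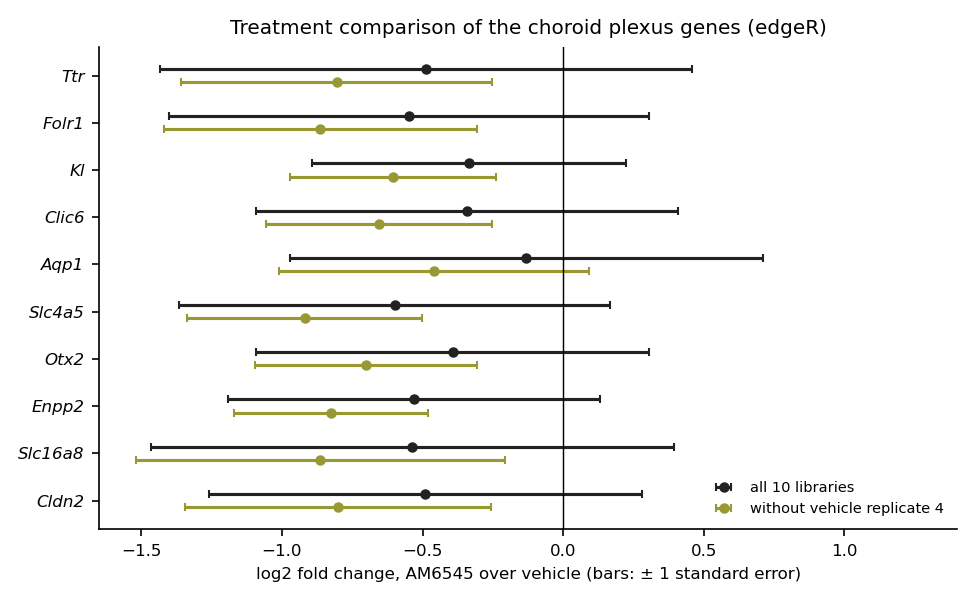
log2 fold change of each gene, AM6545 over vehicle, with bars of 1 standard error, from edgeR with all 10 libraries (black) and without vehicle replicate 4 (olive). All 10 estimates are below 0 in both fits, and those without vehicle replicate 4 are further below.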

How the data were processed

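The authors deposited estimated counts per gene and per transcript, made with Salmon 1.5.2 on mm10, per the submitters' processing notes; the annotation release and use of strand are not given in the sources used here. The labels name a SMARTer kit for low RNA input. Groups and replicate numbers came from the titles. Symbols were assigned by identifier without its version, to 22155 genes; only 11 identifiers had the version suffix of GENCODE M21, which gave transcript names, lengths and exons on GRCm38, the build also called mm10.

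Estimated counts were rounded and tested with edgeR 4.0.16 (R 4.3.3), TMM scaling, filterByExpr (minimum count 10, total 15), robust quasi-likelihood and Benjamini-Hochberg adjustment at 0.05, two-sided. Levels and ratios used unrounded counts, and correlations used log2 CPM with a prior count of 2. DESeq2 1.42.0, limma 3.58.1 voom, other scalings, no filter, a replicate block, a covariate and leaving out each library were alternatives. In 3 simulated runs over 14358 genes, 83.3% of genes changed 2-fold were called; these had the spread of typical genes, so this share does not describe the 10 genes, whose spread is far wider. The 10 genes and the lists were chosen with earlier results of these data known. Named genes were the 10, of each list the 3 of highest mean CPM and the 2 of highest correlation, and the 10 genes most like the set; a gene that this rule names is not reported here.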

Additional observations from a re-analysis of the deposited data

Results flagged for a closer look

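Dixon's gap criterion was used to list values far from the other 4 libraries of their group, and it listed 10 values in 44 groups of 5 libraries, all in vehicle replicate 4. The genes were chosen for varying between libraries, so this is a description and no test. The criterion's rate of about 1 in 20 groups by chance does not apply to them. The genes also vary together, and the shares of the 3 Enpp2 forms sum to the whole and count as 1 observation. Levels of 2.58 CPM for Clic6, 0.246 CPM for Slc4a5, 1.11 CPM for Otx2 and 0.0409 CPM for Slc16a8 stood below the other vehicle libraries, which held at least 65.5, 9.26, 20.4 and 8.11 CPM.

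Ratios to Ttr that stood above the other vehicle libraries were 30.4 counts per 100 Ttr counts for Kl, 2.66 for Otx2 and 875 for Enpp2, against at most 4.57, 1.004 and 234. Of the 3 main Enpp2 forms, Enpp2-202 was at 29.2%, Enpp2-201 at 65.6% and Enpp2-204 at 5.19%, against at most 9.65% for Enpp2-202 and at least 82.0% for Enpp2-201 and 8.10% for Enpp2-204.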

How the results depend on the processing

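The 0 genes called between the groups became 1 with limma-voom (Insc, lower), 1 without vehicle replicate 3 (Gm28048, higher) and 1 without AM6545 replicate 3 (Insc, lower), none of them a choroid plexus gene; leaving out each library gave between 0 and 1. Both names were chosen after their values were seen, and the cause was not tested. The log2 fold change of Aqp1 turned to 0.0515 with limma-voom and to 0.0531 with the replicate block, and lay between -0.52 and 0.29 when each library was left out, turning positive at 0.29 without vehicle replicate 2, 0.08 without AM6545 replicate 2 and 0.09 without AM6545 replicate 4. The other 9 genes stayed negative in every setting in which their estimates were compared. The fit with a covariate was not among these settings, so the sign of the choroid plexus genes there is not given.

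With the replicate number as a block, 0 genes were called and the median log2 fold change of the 10 genes was -0.23, with Ttr at -0.04. Same-numbered libraries correlated between -0.19 and 0.40. For replicates 3 and 4 the same-numbered library was the best match in both directions, and for replicate 5 from the vehicle side only. For replicates 1 and 2 it was the best match in neither direction, so the numbers were not shown to pair the libraries. Without vehicle replicate 4 the summed level of the 10 genes in the vehicle group rose from 6661 to 8220 CPM, and leaving out each library gave 5861 to 8220 CPM there and 3945 to 5301 CPM with AM6545. At 1 count, Aqp1 and Slc16a8 in vehicle replicate 4 set no more than an interval.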
